A study of Rattus norvegicus with 31 samples.

Results

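The comparison is that of high-salt with control rat colon: 4 libraries of the high-salt model (HS, replicates 1, 2, 4 and 5) against 5 libraries of the normal control (NC, replicates 1 to 5), 9 of the 31 libraries of the series. The libraries were chosen by measured values: the remaining HS colon library, replicate 3, was left out because it carried transcripts of the small intestine, with Fabp6 and Reg3g high and with Aqp8 and the carbonic anhydrase gene Car1 near 0. The series holds bulk RNA from kidney cortex and colon of rats (Rattus norvegicus) in 3 groups, the last being high salt with added calcitriol (CAL), the active form of vitamin D. The 6 CAL colon libraries entered the model as a further group so that the variation between libraries was estimated from 15 colon libraries, but they were not compared here. Strain, sex, age, the salt content and duration of the diet, and the hour at which tissue was taken were not used here, and nothing in the labels ties a library to a separate animal, so a p measures only the variation between these libraries.

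The colon absorbs most of the water and salt that reaches it. Surface colonocytes take up sodium in exchange for protons and, in the distal part, through the epithelial sodium channel ENaC, whose abundance is raised by aldosterone acting on the mineralocorticoid receptor. Cells are born in the crypts, mature as they move to the surface and are shed there, and goblet cells among them secrete the mucus. Bulk colon also holds smooth muscle, lymphoid follicles, nerves and blood, so that fewer cells of a type and less RNA per cell cannot be told apart.

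The 4 genes used to choose the libraries are given as a description only. Aqp8, the water channel of surface colonocytes, was at 1299, 1317, 1250.0, 1514 and 1383 counts per 1e6 counts (CPM) in NC replicates 1 to 5 and at 503, 229, 269.8 and 487 CPM in HS replicates 1, 2, 4 and 5, and at 4.81 CPM in the library left out. All 4 HS libraries in the comparison thus lay below all NC libraries in a gene that was part of the selection, and the selection removed the lowest. Car1 ran from 953 to 4627 CPM in NC and from 1021 to 1523 CPM in HS, against 7.21 CPM in the library left out. Fabp6, the bile acid binding protein of the ileum, was at most 13.7 CPM in NC and 15.2 CPM in HS, and 13820 CPM in the library left out. Reg3g, an antimicrobial lectin, was at most 6.90 CPM in NC, but HS replicate 1 held 54 of its counts (58.8 CPM), with 41 counts of its neighbour Reg3b (44.6 CPM). The other HS libraries in the comparison held at most 1 count of Reg3g, and the library left out 40121 CPM.

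**Figure D1:**
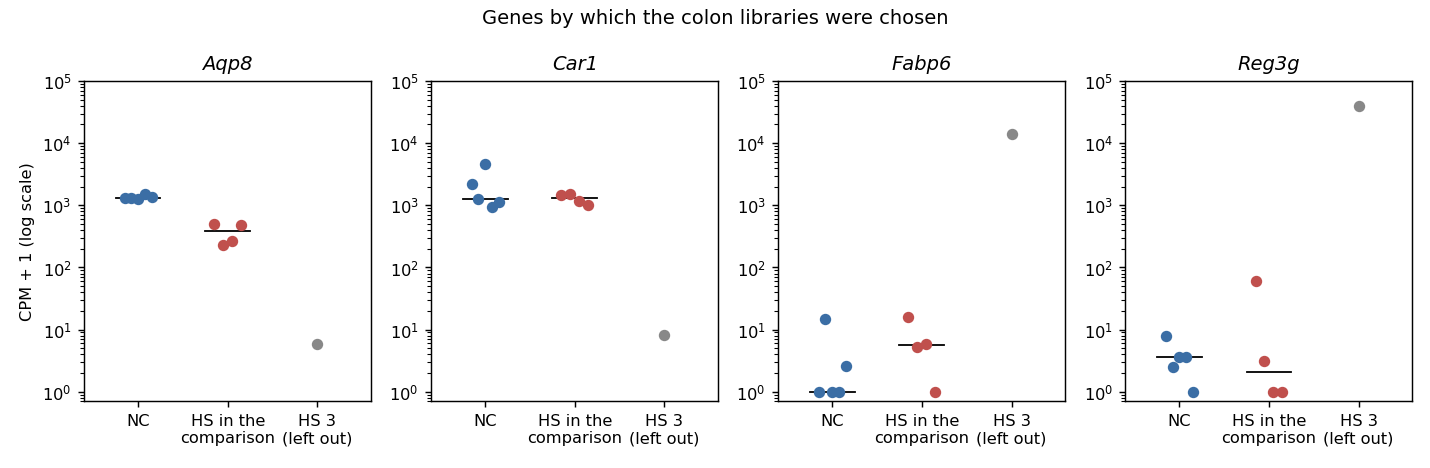
Level of the 4 selection genes in each colon library (vertical axis, CPM + 1 on a log scale; points are libraries, lines the median of the group). The left-out HS replicate 3 sits at 13820 CPM of Fabp6 and 40121 CPM of Reg3g, and HS replicate 1 stands above the other kept libraries in Reg3g at 58.8 CPM.

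The colon identity of the 9 libraries was checked with genes that mark it. Hoxb13, a positional gene of the hindgut, ran from 376 to 1017 CPM in NC and from 477 to 735 CPM in HS, and was at 0 in the library left out. Other positional genes split the libraries. Hoxd13 was at 5.17 and 13.3 CPM in NC replicates 1 and 3 (3 and 5 counts), against 44.2 to 144 CPM in the other 7 libraries. Hoxd10 was at 0 in NC replicates 1 and 3, which allows up to 5.17 and 7.996 CPM, and at 6.09 to 36.0 CPM in the other 7. The part of this difference within NC in the results was not tested. Counts without both libraries are given for some lists only, and other lists moved as well. Lypd8, which keeps bacteria from the colonic surface, was among the most abundant transcripts, with 35406 to 39778 CPM in NC and 23601 to 42729 CPM in HS. Total counts ran from 305700 to 918820 per library, with 11464 to 13776 genes counted, so that a count of 0 allows up to 3.27 to 9.81 CPM (3 counts, counting error only). No pair of replicates among the 9 agreed within sampling noise (the lowest chi-square per degree of freedom was 3.34).

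The HS libraries were less alike than the NC libraries. The mean correlation of a library with the others of its group, across genes, was 0.900 to 0.924 in NC and 0.785 to 0.839 in HS. With the libraries of the other group it was 0.858 to 0.870 for NC and 0.801 to 0.906 for HS, so that each HS library correlated better on average with NC than with its own group. The first principal component held 35.3% of the variance, and placed HS replicate 4 at 34.3 and HS replicate 5 at 18.7, with HS replicates 1 and 2 at -12.2 and -11.8 and NC replicate 1 at 13.4. Genes of B cells and lymphoid follicles led that component, among them Cr2, Cxcl13, Ms4a1 and Cd79b. The 14 listed B cell markers summed to 2438 CPM in HS replicate 4 and 991 CPM in HS replicate 5, against 9.80 and 14.7 CPM in HS replicates 1 and 2. In NC the sums were 769, 30.5, 176, 103 and 26.7 CPM. The HS group therefore held both the highest and the lowest B cell sums of the 9 libraries.

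The smooth muscle markers split the libraries differently. They summed to 6093, 21710, 24955, 5792 and 21291 CPM in NC and to 4444, 36898, 7149 and 27036 CPM in HS, high and low within each group. The surface colonocyte markers, which include Aqp8 and Car1, summed to 51703 to 56375 CPM in NC. In HS replicates 1, 2, 4 and 5 they summed to 58811, 33701, 39270 and 44046 CPM, so that 3 HS libraries lay below every NC library and 1 above. Most of each sum was the single gene Lypd8, at 42729, 23601, 27015 and 31302 CPM in these HS libraries and 35406 to 39778 CPM in NC.

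**Figure D2:**
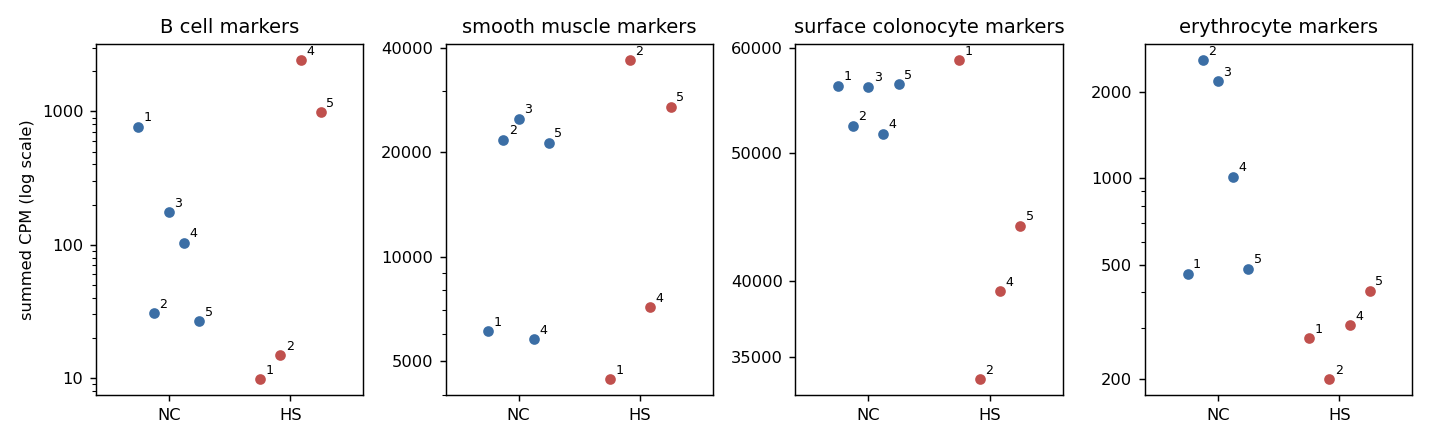
Summed CPM of 4 cell type marker lists per library (vertical axes, log scale; numbers are replicates). B cell markers span 9.80 to 2438 CPM within HS alone, smooth muscle markers fall into a high and a low set in both groups, and the erythrocyte sums do not overlap between the groups.

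Of 7744 genes tested by the edgeR quasi-likelihood test with Benjamini-Hochberg adjustment, 1 (0.0129%) was past an adjusted p of 0.05, with 0 higher (0%) and 1 lower (0.0129%). That gene was Aqp8, which was used to choose the libraries, so nothing is read from its call. Unadjusted p were under 0.05 for 514 genes (6.64%), 285 higher in HS (3.68%) and 229 lower (2.96%). The HS and NC libraries did not overlap for 182 genes (2.35%), with HS above NC for 73 (0.943%) and below for 109 (1.41%). DESeq2 called 16 genes, 3 higher and 13 lower, and voom with library quality weights called 1. With HS replicates 4 and 5 also left out, 1 gene was called, Akr1c14, higher in HS and named after its value was seen, and with HS replicate 3 put back 0 were called. Without NC replicates 1 and 3 the 1 call was again Aqp8. The median standard error (SE) of a log2 fold change was 0.34, and it was under 0.5 for 6721 genes. For 4057 of the genes the whole 95% interval lay between -1 and 1 on the log2 scale.

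**Figure D3:**
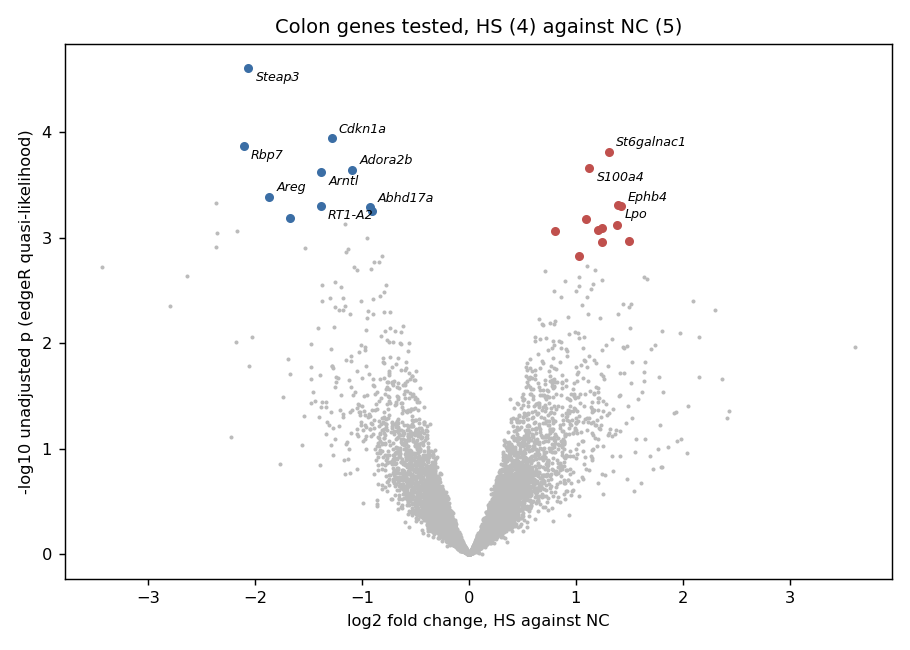
Log2 fold change of HS against NC (horizontal axis) and -log10 of the unadjusted edgeR p (vertical axis) for the colon genes tested, without the genes of the small and large intestine lists. Coloured points are the 12 higher and 10 lower genes with the smallest p, of which Steap3 lies highest at an adjusted p of 0.0798.

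The genes nearest to the threshold are described next, by smallest p and not by a call: 12 higher and 10 lower in HS, with adjusted p from 0.170 to 0.331 and from 0.0798 to 0.267. Levels are TMM-scaled CPM, in the order of NC replicates 1 to 5 and then HS replicates 1, 2, 4 and 5. The groups did not overlap for 6 of the 12 and 8 of the 10, counts that follow from choosing by p and are set against 0.943% and 1.41% of all genes without further reading. DESeq2, run on the same counts, called all of the lower genes, and Lpo, S100a4 and St6galnac1 among the higher. Voom called none of either.

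Steap3, the endosomal reductase that frees iron taken up with transferrin, had the smallest p among them. Its level was 56.6, 57.5, 73.4, 45.8 and 51.3 CPM in NC and 18.1, 19.9, 4.88 and 6.54 CPM in HS. The groups did not overlap, and HS replicates 4 and 5 were lowest. Both of these values lay under what a count of 0 allows in those libraries (7.43 and 9.81 CPM). The log2 fold change was -2.06 (SE 0.39, edgeR adjusted p = 0.0798) and it passed the threshold in 5 of 24 other settings, with adjusted p from 0.000484 to 0.337. It passed in DESeq2 (0.00215), with no filter on low counts, under the 1 CPM filter, under robust empirical Bayes and with the marker covariates, and in no setting that left out a library. LOC689065, a locus without an assigned symbol and so outside the rule for named genes, had the same adjusted p and was chosen after its values were seen. It was at 215, 205, 310.1, 205 and 239.8 CPM in NC and 75.6, 62.0, 56.1 and 101 CPM in HS, without overlap (log2 fold change -1.68, SE 0.32, edgeR adjusted p = 0.0798). It passed in 8 of 24 other settings, with adjusted p from 6.16e-06 to 0.337, and in none that left out an NC or HS library. Iron handling as a list (9 genes tested) had 5 genes above and 4 below 0, a median of 0.02 and no call.

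Cdkn1a encodes p21, the inhibitor of cyclin-dependent kinases that accompanies cell cycle exit. It stood at 133, 127, 103, 149 and 134 CPM in NC and 81.3, 46.5, 43.9 and 32.7 CPM in HS, without overlap. The log2 fold change was -1.28 (SE 0.27), with an edgeR adjusted p of 0.170 that became 0.0472 without HS replicate 1, the highest of the HS libraries. Cdkn1a passed in 4 of 24 other settings, with adjusted p from 0.00498 to 0.476 over all of them. Ccnd2, which encodes the G1 cyclin D2, lay on the other side: 153, 131, 128, 158 and 149 CPM in NC and 297, 190.3, 261 and 258 CPM in HS. All HS libraries were above all NC libraries, with a log2 fold change of 0.81 (SE 0.21, edgeR adjusted p = 0.267).

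Of the cell cycle list, 26 genes were tested and 21 lay above 0, with a median log2 fold change of 0.70, against 4118 of 7744 above 0 and a median of 0.03 over all genes tested. None passed, and 7 were higher and 1 lower (Cdkn1a) at an unadjusted p under 0.05, against 3.68% and 2.96% of all genes. Tubb5, a beta tubulin, was at 199, 139.9, 188, 120.3 and 121 CPM in NC and 133, 297, 334 and 252 CPM in HS, with overlap (log2 fold change 0.72, edgeR adjusted p = 0.591). Mcm2, a subunit of the replicative helicase, was highest in HS replicates 4 and 5 at 48.8 and 58.9 CPM, the libraries rich in B cell transcripts, with 14.7 and 26.6 CPM in HS replicates 1 and 2 (log2 fold change 1.17, adjusted p = 0.677). Without HS replicates 4 and 5, 21 of the 26 genes again lay above 0, with a median of 0.49, and with the B cell and smooth muscle sums as covariates 21 did, with a median of 0.66. Without NC replicates 1 and 3, 23 lay above 0, with a median of 0.97.

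Crypt stem cell and Wnt genes lay above 0 in all 13 tested, with a median of 0.50 and 3 at an unadjusted p under 0.05 (3.68% of all genes were higher at that level), and all 13 did so without HS replicates 4 and 5 (median 0.65) and with the covariates (median 0.52). Cdca7 was at 25.5, 7.77, 27.2, 6.54 and 6.61 CPM in NC and 24.8, 26.6, 70.8 and 39.2 CPM in HS (log2 fold change 1.499, edgeR adjusted p = 0.458). Cd44, a Wnt target at the crypt base, had a log2 fold change of 0.74 and Slc12a2, the basolateral sodium-potassium-chloride cotransporter of crypt cells, one of 0.87 (adjusted p = 0.608 and 0.696). Slc12a2 was high in HS replicates 1 and 2 alone, at 405 and 286 CPM, against 87.9 and 94.8 CPM in HS replicates 4 and 5 and 74.6 to 192 CPM in NC. The surface colonocyte list, without the genes of the selection lists, lay below 0 in 9 of 9 genes tested, with a median of -0.32. None was past the threshold, and 1 (Mall) was lower at an unadjusted p under 0.05, against 2.96% of all genes. All 9 were also below 0 without HS replicates 4 and 5 (median -0.56) and with the covariates (median -0.38), but 5 of 9 with HS replicate 3 put back.

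St6galnac1, the goblet cell enzyme that adds sialic acid to mucin O-glycans, was at 128, 103, 95.2, 107 and 56.2 CPM in NC and 218, 197, 412 and 141 CPM in HS. The HS libraries all lay above the NC libraries and HS replicate 4 was the highest (log2 fold change 1.31, SE 0.29, edgeR adjusted p = 0.170). Chst5, an intestinal N-acetylglucosamine 6-O-sulfotransferase, stood at 29.2, 40.4, 19.0, 20.9 and 33.1 CPM in NC and 73.4, 88.5, 107 and 29.4 CPM in HS. HS replicate 5 lay within the NC range and the other 3 HS libraries above it (log2 fold change 1.38, SE 0.36, adjusted p = 0.267 by edgeR). Papss2, which makes the sulfate donor that sulfotransferases use, was at 38.3, 48.2, 32.6, 45.8 and 41.3 CPM in NC and 121, 59.8, 139 and 62.1 CPM in HS, without overlap (log2 fold change 1.21, SE 0.31, edgeR adjusted p = 0.267). St6galnac1, Chst5 and Papss2 were placed side by side after their values were seen.

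The mucus and goblet secretion list, without a member that is also in the selection lists (16 genes tested), had a median of -0.07 with 9 genes below 0. St6galnac1 was higher and 0 were lower at an unadjusted p under 0.05, against 3.68% and 2.96% of all genes. The list changed side without HS replicates 4 and 5 (median 0.05) and without NC replicates 1 and 3 (median 0.06). Retnlb, a goblet cell protein with activity against bacteria, was at 2171, 410.4, 691, 507 and 418 CPM in NC and 376, 637, 519.8 and 19.6 CPM in HS. NC replicate 1 was the highest and HS replicate 5 the lowest of the 9, with the other libraries overlapping (log2 fold change -1.10, adjusted p = 0.759 by edgeR). The mucin gene Muc2 was not analysed here.

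Lpo, which encodes the secreted peroxidase lactoperoxidase, was at 162, 143, 141, 99.4 and 82.7 CPM in NC and 429, 294, 461 and 121 CPM in HS. HS replicate 5 lay within the NC range and the other HS libraries above it (log2 fold change 1.39, SE 0.34, edgeR adjusted p = 0.249). S100a4, a calcium-binding protein of stromal and immune cells, was at 146, 135, 125, 159.5 and 124 CPM in NC and 183, 336, 308 and 392 CPM in HS, without overlap (log2 fold change 1.13, SE 0.26, edgeR adjusted p = 0.187). Ephb4, the receptor of ephrin-B2, was at 16.4, 12.4, 19.0, 20.9 and 18.2 CPM in NC and 65.5, 46.5, 43.9 and 26.2 CPM in HS, also without overlap (log2 fold change 1.42, SE 0.35, edgeR adjusted p = 0.249).

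Flot2, a scaffold protein of membrane microdomains, was at 32.8, 40.4, 27.2, 24.8 and 34.7 CPM in NC and 58.7, 64.2, 109.8 and 42.5 CPM in HS. The HS libraries were all above the NC libraries, HS replicate 5 by little (log2 fold change 1.10, SE 0.28, edgeR adjusted p = 0.267). Acly makes cytosolic acetyl-CoA for lipid synthesis and was at 76.6, 74.6, 128, 61.4 and 64.5 CPM in NC and 181, 181, 190.4 and 94.8 CPM in HS. HS replicate 5 fell within the NC range, and the other 3 HS libraries lay close together above it (log2 fold change 1.03, SE 0.29, edgeR adjusted p = 0.331).

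Matrix genes varied within HS. Bgn, which encodes the proteoglycan biglycan, was at 76.6, 49.7, 27.2, 65.4 and 62.8 CPM in NC and 75.6, 148, 178 and 147 CPM in HS. HS replicate 1 lay within the NC range and the others above it (log2 fold change 1.24, SE 0.33, adjusted p = 0.291 by edgeR). Thbs4, a thrombospondin of the matrix, was at 52.9, 96.4, 54.4, 86.3 and 79.4 CPM in NC and 172, 210.3, 237 and 85.0 CPM in HS. Here HS replicate 5 was the one within the NC range (log2 fold change 1.24, SE 0.32, edgeR adjusted p = 0.267). Of 26 extracellular matrix genes tested, 22 lay above 0, with a median of 0.31, 3 higher at an unadjusted p under 0.05 (against 3.68% of all genes) and none past the threshold. Without NC replicates 1 and 3 the median was 0.19. That median was 0.09 with HS replicate 3 put back. The smooth muscle list lay above 0 in 18 of 19 genes tested, with a median of 0.21 and none at an unadjusted p under 0.05, and above 0 in 10 of 18 (median 0.03) with HS replicate 3 put back.

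**Figure D4:**
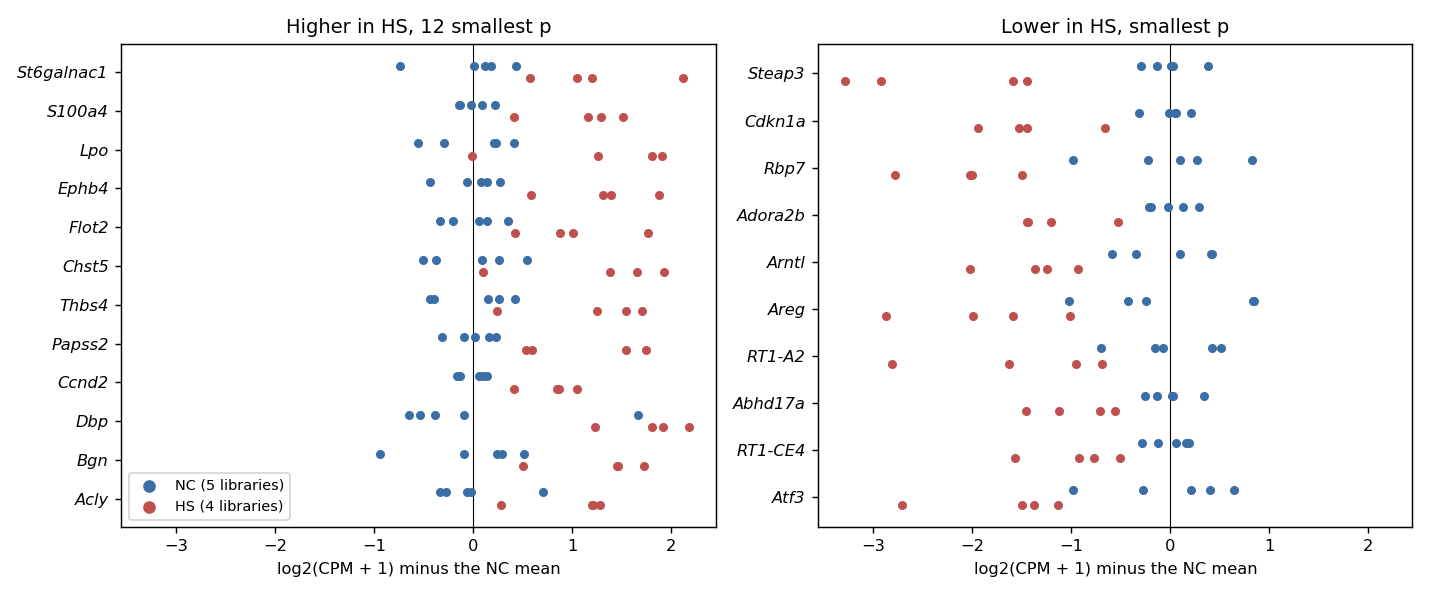
Level of the 12 higher and 10 lower genes with the smallest p in each library, as log2(CPM + 1) minus the NC mean (horizontal axis; blue NC, red HS). HS points lie clear of NC points for 6 genes on the left and 8 on the right, and the single NC point of Dbp at the right is replicate 5.

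Rbp7, a carrier of retinol, was at 100.3, 27.98, 68.0, 60.1 and 48.0 CPM in NC and 19.2, 13.3, 7.32 and 13.1 CPM in HS. No HS library reached the lowest NC library (log2 fold change -2.103, SE 0.46, edgeR adjusted p = 0.170). Adora2b, the adenosine receptor that drives chloride secretion in the colonic epithelium, was at 153, 151, 215, 173 and 192 CPM in NC and 121, 64.2, 63.5 and 75.2 CPM in HS. The groups did not overlap and HS replicate 1 was nearest to NC (log2 fold change -1.09, SE 0.25, edgeR adjusted p = 0.187). Areg, a ligand of the epidermal growth factor receptor, was at 31.0, 20.2, 35.4, 75.8 and 76.1 CPM in NC and 20.3, 13.3, 4.88 and 9.81 CPM in HS, and HS replicate 1 overlapped NC replicate 2 (log2 fold change -1.86, SE 0.45, adjusted p = 0.249 by edgeR).

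Abhd17a removes palmitate from membrane proteins, and its level was 319, 264, 288, 400.1 and 322 CPM in NC and 214, 193, 144 and 114 CPM in HS. The groups did not overlap (log2 fold change -0.92, SE 0.23, edgeR adjusted p = 0.249). Atf3, a transcription factor induced by stress, was at 63.9, 38.9, 89.8, 103 and 122 CPM in NC and 34.99, 11.1, 26.8 and 29.4 CPM in HS. HS replicate 1 was just below the lowest NC library (log2 fold change -1.67, SE 0.42, edgeR adjusted p = 0.267).

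Atf3 belongs to the immediate early genes, of which 18 were tested, with a median of -0.06, 10 below 0, and 4 lower and 1 higher at an unadjusted p under 0.05, against 2.96% and 3.68% of all genes. Jun was at 201, 177, 201, 388 and 208 CPM in NC and 156, 86.3, 61.0 and 118 CPM in HS, with no overlap (log2 fold change -1.14, SE 0.31, edgeR adjusted p = 0.319). Klf6 had a log2 fold change of -0.59 (adjusted p = 0.678) and HS replicate 5 overlapped NC. The gene higher at that level was Ccn1 (log2 fold change 0.80, adjusted p = 0.692). The list as a whole thus did not lie to one side, although without HS replicate 1 the median was -0.51, with 13 below 0, and without NC replicates 1 and 3 it was -0.31, with 12 below 0.

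RT1-A2 and RT1-CE4 encode chains of the rat MHC class I, which presents peptides to cytotoxic T cells. RT1-A2 was at 1293, 555, 1210.5, 859 and 810.2 CPM in NC and 468, 128, 293 and 559 CPM in HS, with a slight overlap (log2 fold change -1.38, SE 0.34, edgeR adjusted p = 0.249). RT1-CE4 was at 620.3, 704, 753, 769 and 556 CPM in NC and 356, 228, 395 and 474 CPM in HS, without overlap (log2 fold change -0.91, SE 0.23, adjusted p = 0.254 by edgeR). RT1-A1 lay the same way (log2 fold change -0.89, adjusted p = 0.442). These genes are near-identical copies, so the split of reads between them is uncertain.

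The MHC class II invariant chain gene Cd74 did not go with them. It was at 4296, 1342, 1360.1, 1122 and 1055 CPM in NC and 801, 885, 12371 and 3858 CPM in HS, highest in HS replicates 4 and 5 and lowest in HS replicates 1 and 2, as were the B cell sums. The log2 fold change of Cd74 was 1.29 (edgeR adjusted p = 0.726) and turned to -1.12 when HS replicates 4 and 5 were also left out. Of 13 tested genes of MHC and antigen presentation, 8 lay above 0 and 5 below, with a median of 0.30. Without HS replicates 4 and 5, 4 lay above 0 and 9 below, with a median of -1.12. The 7 tested B cell markers behaved alike: each was highest in HS replicate 4 or 5, their median was 2.04 and none passed, and without those libraries all 7 lay below 0.

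The circadian clock list held genes near the threshold on both sides. In the clock, the Arntl (BMAL1) and CLOCK proteins bind E-boxes (CACGTG) and drive the Per, Cry, Nr1d and PAR bZIP genes (Dbp, Tef), while NR1D1 and NR1D2 hold back Arntl through ROR elements, of which the letters AAAGTAGGT are a part. The output genes therefore peak at other hours of the day than Arntl. To show these letters next to the values, the 250 bases before the start of the RefSeq gene (assembly GRCr8, plus strand, 5′ to 3′) are given for Arntl and Tef. Capitals mark AAAGTAGGT in Arntl (chr1:176766078-176766327) and CACGTG in Tef (chr7:115206577-115206826).
Arntl: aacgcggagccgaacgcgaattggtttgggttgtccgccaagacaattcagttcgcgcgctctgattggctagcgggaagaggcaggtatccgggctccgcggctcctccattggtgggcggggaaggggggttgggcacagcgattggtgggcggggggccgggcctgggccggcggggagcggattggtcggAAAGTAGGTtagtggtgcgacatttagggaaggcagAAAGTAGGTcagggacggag
Tef: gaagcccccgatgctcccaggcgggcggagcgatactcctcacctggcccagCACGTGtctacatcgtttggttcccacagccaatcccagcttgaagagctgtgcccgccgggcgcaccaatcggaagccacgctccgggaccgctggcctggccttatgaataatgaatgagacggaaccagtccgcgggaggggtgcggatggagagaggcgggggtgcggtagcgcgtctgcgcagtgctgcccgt
AAAGTAGGT stands at bases 56 to 48 and 20 to 12 before the start of Arntl, and CACGTG at bases 198 to 193 before Tef. Over both strands, CACGTG was found in 1872 of 33469 RefSeq promoter windows of that length (5.59%) and AAAGTAGGT in 59 (0.176%). Of the 17 clock genes tested, 14 were matched to a promoter, of which 3 held CACGTG and 1 (Arntl) held AAAGTAGGT in that window, and Dbp held neither. These are counts of genes over any of their starts, as for Nr1d1, while the shares above are of windows, so the 2 are not compared. No other spelling of either element was searched for. A match describes the letters only.

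Arntl was at 80.3, 137, 136, 109.8 and 67.8 CPM in NC and 53.0, 24.3, 39.0 and 42.5 CPM in HS. The HS libraries all lay under the NC range (log2 fold change -1.38, SE 0.32, edgeR adjusted p = 0.187). Dbp was at 21.9, 20.2, 24.5, 30.1 and 104 CPM in NC and 76.8, 115, 149 and 124 CPM in HS. The HS libraries lay above NC replicates 1 to 4, and NC replicate 5 stood apart, inside the HS range. The log2 fold change was 1.498 (SE 0.40, edgeR adjusted p = 0.291), and without NC replicate 5 it was 2.24 (adjusted p = 0.00697). Dbp passed in 2 of 24 other settings, that one and no filter on low counts, with adjusted p from 0.00633 to 0.615 over all of them. Tef was at 29.2, 15.5, 2.72, 6.54 and 33.1 CPM in NC and 37.2, 50.9, 53.7 and 91.6 CPM in HS, and all HS libraries were above all NC libraries (log2 fold change 1.67, SE 0.49, adjusted p = 0.393 by edgeR).

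Of the 17 clock genes tested, 11 lay above 0 and 6 below, with a median of 0.51, and 4 were higher and 3 lower at an unadjusted p under 0.05, against 3.68% and 2.96% of all genes. Those higher were Dbp, Tef, Per2 and Nr1d1, and those lower were Arntl, Cry1 and Nfil3. Cry1, which the Arntl protein also drives, was among those lower, and how these genes act on each other was not tested. None passed the adjusted threshold. Without HS replicates 4 and 5 the median was 0.06, with 10 above 0 and 7 below, and without NC replicates 1 and 3 it was 0.21, with 11 above 0. The groups did not overlap for Tef above and for Arntl and Nfil3 below, against 0.943% and 1.41% of all genes. The hour of tissue collection was not used here, and its part in these values was not tested.

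Tight and adherens junction genes lay below 0 in 19 of 23 tested, with a median of -0.26, 4 of them lower at an unadjusted p under 0.05 (against 2.96% of all genes) and none past the threshold. Cldn23, a claudin of surface epithelium, was at 246, 242, 256, 279.8 and 274 CPM in NC and 124, 117, 117 and 183 CPM in HS, without overlap (log2 fold change -0.95, SE 0.25, edgeR adjusted p = 0.289). Cldn4 had a log2 fold change of -0.75 and Ctnnb1, which encodes beta-catenin, one of -0.57 (adjusted p = 0.699 and 0.611). Ctnnb1 was at 128, 99.5, 147, 105 and 116 CPM in NC and 80.1, 64.2, 90.3 and 85.0 CPM in HS, with no overlap. Cldn2, which forms pores for sodium and water, was at 56.6, 29.5, 92.5, 36.6 and 38.0 CPM in NC and 112, 111, 34.2 and 49.0 CPM in HS (log2 fold change 0.67, 95% interval -0.20 to 1.55, adjusted p = 0.817 by edgeR). The scaffold gene Tjp1 had a log2 fold change of 0.04 (95% interval -0.55 to 0.63).

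Sodium handling by ENaC and aldosterone showed no gene near the threshold. Scnn1a, which encodes the alpha subunit of ENaC, was at 166, 229, 174, 255 and 255 CPM in NC and 223, 122, 347 and 173 CPM in HS, and the log2 fold change was 0.00 with a 95% interval of -0.58 to 0.58. The beta subunit gene Scnn1b was at 16.4, 37.3, 19.0, 23.5 and 28.1 CPM in NC and 13.5, 6.64, 29.3 and 49.0 CPM in HS (log2 fold change -0.13, interval -1.33 to 1.07), an interval that covers a change by a factor of 2 in either direction. The gamma subunit gene Scnn1g did not pass the filter on low counts. Among regulators, the mineralocorticoid receptor gene Nr3c2 had a log2 fold change of -0.32 (interval -1.01 to 0.36), the enzyme gene Hsd11b2, which shields that receptor from glucocorticoids, 0.03 (-0.60 to 0.65), the aldosterone-induced kinase gene Sgk1 -0.28 (-1.12 to 0.55), and the glucocorticoid receptor gene Nr3c1 0.45 (-0.12 to 1.02). Sgk1 was at 1173, 818, 816, 2935 and 2036 CPM in NC and 1315, 383, 1232 and 2191 CPM in HS, a wide scatter in both groups. Of the 13 genes tested in this list, 9 lay below 0, the median was -0.15 and none had an unadjusted p under 0.05. Without HS replicates 4 and 5, 12 lay below 0 and the median was -0.35.

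Genes of surface ion absorption outside the selection lists (15 tested) had a median of -0.16, with 9 below 0 and 6 above. At an unadjusted p under 0.05, 2 were lower and 1 higher, against 2.96% and 3.68% of all genes. Slc9a2, which encodes the sodium-proton exchanger NHE2, was at 215, 302, 294, 314 and 291 CPM in NC and 235, 104, 144 and 209 CPM in HS, with overlap at NC replicate 1 and HS replicate 1 (log2 fold change -0.70, edgeR adjusted p = 0.594). Slc16a1, the monocarboxylate transporter gene for short-chain fatty acids, was at 363, 474, 498, 580.5 and 293 CPM in NC and 381, 157, 209.9 and 307 CPM in HS (log2 fold change -0.74, adjusted p = 0.662). The exchanger gene Slc9a3 belongs to the selection lists and is given by value only: 405, 121, 620.2, 77.1 and 213 CPM in NC and 170.4, 195, 31.7 and 19.6 CPM in HS. It overlapped between the groups and was lowest in HS replicates 4 and 5.

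Vitamin D target and calcium transport genes (9 tested) had a median of -0.09, with 6 below 0 and none at an unadjusted p under 0.05. The receptor gene Vdr was at 286, 305, 277, 631 and 271 CPM in NC and 332, 175, 356 and 301 CPM in HS, NC replicate 4 standing apart (log2 fold change -0.29, 95% interval -0.84 to 0.27). S100g, which encodes the calcium carrier calbindin-D9k, was at 2259, 4929, 985, 9959.6 and 4623 CPM in NC and 2299, 2131, 659 and 4094 CPM in HS, a wide range within NC (log2 fold change -0.99, adjusted p = 0.769). Cyp24a1, the enzyme that breaks down active vitamin D, did not pass the filter on low counts. Of the renin-angiotensin list 2 genes were tested, and the prorenin receptor gene Atp6ap2 had a log2 fold change of 0.16 (95% interval -0.27 to 0.59).

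Respiratory chain genes lay below 0 in 36 of 46 tested, with a median of -0.11 and none at an unadjusted p under 0.05. Without HS replicates 4 and 5, 38 of the 46 lay above 0, with a median of 0.15, so the side on which this list lay rested on those libraries. Slc51a and Slc51b encode the basolateral exporter of bile acids. Slc51a was at 34.7, 42.0, 92.5, 27.5 and 21.5 CPM in NC and 5.64, 2.21, 17.1 and 19.6 CPM in HS, every HS library below every NC library (log2 fold change -2.05, SE 0.79, edgeR adjusted p = 0.678). That order also held for 1.41% of all genes, and HS replicate 5 lay just under NC replicate 5. The Slc51a value of HS replicate 2 lay under what a count of 0 allows there (6.31 CPM). Slc51b had a log2 fold change of -1.31 (adjusted p = 0.749). Both turned positive, to 3.95 and 3.35, when HS replicate 3 was put back, the library with 13820 CPM of Fabp6.

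Apoa1, an apolipoprotein of the small intestine list, is given by value only, at 657, 362, 356, 94.1 and 56.2 CPM in NC and 24.8, 59.8, 53.7 and 42.5 CPM in HS. All HS libraries were below NC replicates 1 to 4, and NC replicate 5 was inside the HS range. Among mast cell markers (4 tested), the protease gene Mcpt1 was at 350.3, 238, 277, 139.9 and 253 CPM in NC and 76.8, 190.3, 41.5 and 32.7 CPM in HS, with HS replicate 2 inside the NC range (log2 fold change -1.53, SE 0.41, edgeR adjusted p = 0.312). Mcpt1 has near-identical family members, so its reads are uncertain. The 4 tested mast cell markers had a median of -0.06, with 3 below 0 and 1 above, the highest at 0.16. The inflammatory cytokine gene Il1b was at 31.0, 32.6, 24.5, 11.8 and 29.8 CPM in NC and 14.7, 2.21, 17.1 and 13.1 CPM in HS (log2 fold change -1.10, adjusted p = 0.692), and Cck, the hormone of enteroendocrine cells, at 29.2, 45.1, 40.8, 19.6 and 24.8 CPM in NC and 20.3, 17.7, 17.1 and 3.27 CPM in HS (log2 fold change -0.998, adjusted p = 0.678).

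The 3 tested haemoglobin genes were lower in each HS library than in every NC library, as were 1.41% of all genes. Hbb was at 235, 1039.9, 958, 485 and 239.8 CPM in NC and 147, 117, 83.0 and 179.8 CPM in HS (log2 fold change -2.17, SE 0.56, edgeR adjusted p = 0.267). Hba-a1 and Hba-a2, near-identical copies whose reads may be split between them, had log2 fold changes of -2.36 and -2.37 (adjusted p = 0.270 and 0.312). For Hba-a2 the groups barely parted, with at most 71.9 CPM in HS and at least 72.8 CPM in NC. With no filter on low counts the adjusted p of Hbb, Hba-a1 and Hba-a2 were 3.24e-08, 4.54e-09 and 2.17e-08, and in the other 23 settings none of them passed, with adjusted p up to 0.612, 0.655 and 0.673. The haemoglobin share of all counts was 0.0447, 0.254, 0.214, 0.0993 and 0.0461% in NC and 0.0260, 0.0189, 0.0285 and 0.0376% in HS. These are transcripts of blood, and their part in other values was not tested.

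Over the 51 lists outside the 2 segment lists, none held a gene past the threshold other than a selection gene. Among the 39 lists with at least 5 tested genes, the medians ran from -0.61 (enteric neuron) to 2.04 (B cell), beside 0.03 over all genes tested, of which 4118 lay above 0 and 3626 below.

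**Figure D5:**
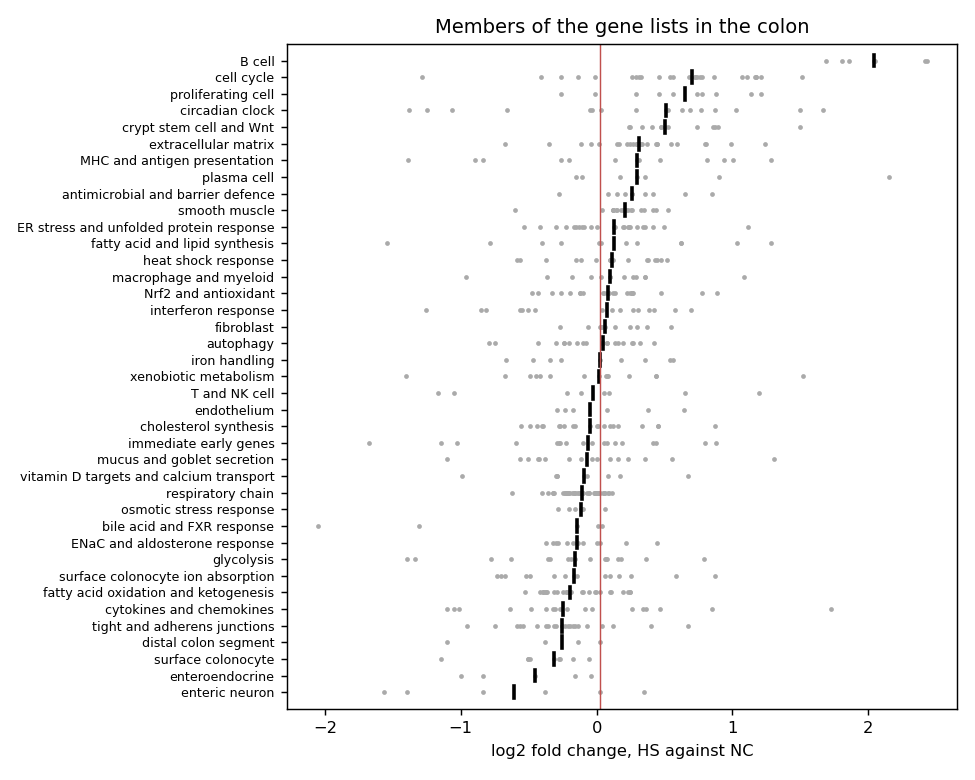
Log2 fold change of HS against NC (horizontal axis) for the tested members of each list with at least 5 tested genes, without members of the small and large intestine lists (grey points; black bars are medians, the red line is the median of all genes, 0.03). The B cell list stands at the top with a median of 2.04, followed by the cell cycle (0.70), proliferating cell (0.65), clock (0.51) and crypt (0.50) lists.

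The colon difference was set beside that of the kidney cortex (4 HS and 5 NC libraries) by an interaction term over 6272 genes that passed the low-count filter in both tissues. By edgeR, 3 genes (0.0478%) passed an adjusted p of 0.05 and 929 (14.8%) had an unadjusted p under 0.05. Flot2 was the one named above: its log2 fold change was 1.603 (SE 0.31) higher in colon than in cortex (adjusted p = 0.0238), where it was -0.52. The call was lost without NC replicate 4 (0.0591), without HS replicate 4 (0.0970), with no filter (0.0636) and with voom (0.0651). The others, Mlph (colon minus cortex 2.44) and Yipf4 (-1.40), were named after their values were seen.

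Ephb4 (difference 1.93, SE 0.51, adjusted p = 0.0857 by edgeR) and Acly (1.18, SE 0.37, adjusted p = 0.135) had log2 fold changes of -0.50 and -0.14 in the cortex. On the other side, Rb1cc1, which encodes a subunit of the kinase complex that starts autophagy, had a difference of -1.97 (SE 0.43, edgeR adjusted p = 0.0591), being -0.75 in colon and 1.22 in cortex. For the clock genes the difference was not past the threshold: Arntl had log2 fold changes of -1.38 in colon and -1.46 in cortex (difference 0.08, SE 0.48, edgeR adjusted p = 0.954), and Dbp 1.498 and 0.93 (difference 0.53, SE 0.52, adjusted p = 0.663). The haemoglobin gene Hbb stood at -2.17 in colon and -2.70 in cortex (difference 0.52, SE 0.69, adjusted p = 0.760). In that model of both tissues the cortex values of Hbb, Hba-a1 and Hba-a2 passed the threshold (edgeR adjusted p = 0.00779, 0.00151 and 0.00151), while in colon Hbb had an adjusted p of 0.0611.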

How the data were processed

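RNA from rat colon and kidney cortex was extracted with TRIzol and prepared with a tagmentation kit, which keeps no strand information, per the labels' protocols. The table holds unnormalised counts of reads by gene symbol, which the authors made and deposited, per the submitters' processing notes, with FastQC 0.11.9, Trimmomatic 0.39, HISAT2 2.1.0, featureCounts 1.6.5 and the genome Rnor_6.0. The annotation and the strand setting were not given in the sources used here. Of 20207 symbols, 2839 had no count in any library.

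Genes were tested with edgeR 4.0.16 in R 4.3.3 (quasi-likelihood, TMM scaling, filter at a minimum count of 10 and a minimum total of 15) over 15 colon libraries, HS against NC, with Benjamini-Hochberg adjustment over all genes tested and a threshold of 0.05. The test was run on simulated counts first. Standard errors come from the quasi-likelihood F. The interaction with the cortex used 30 libraries. Levels of genes in the text are CPM after TMM scaling, while segment genes and marker sums are plain CPM. Principal components used the 500 most variable genes.

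Named genes are the 12 each way with the smallest p (mean log2 CPM of at least 3, assigned symbol), the 3 members of smallest p of each list described, and a set always given. Genes of the small and large intestine lists get values only. Of 1037 entries of 53 lists, 987 matched, 5 through synonyms. The libraries, lists and rules were chosen with earlier results of these data known. Promoter windows are from RefSeq (GRCr8), matched by symbol or synonym. Alternatives were DESeq2 1.42.0, its size factors, upper-quartile scaling, 2 other filters, a fit to the 9 libraries alone, HS replicate 3 put back, robust empirical Bayes, voom in limma 3.58.1, a replicate block, thinning to the shallowest library and leaving out each library, and 4 more chosen after seeing the data: also leaving out HS replicates 4 and 5, leaving out NC replicates 1 and 3, B cell and smooth muscle marker sums as covariates, and leaving out the segment genes.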

Additional observations from a re-analysis of the deposited data

Results flagged for a closer look

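Over 146 groups of 4 or 5 libraries, from 69 genes and 4 marker sums, 11 held a library far from the others of its group. A library was counted where its gap to the nearest other, divided by the range of the group on the log2(CPM + 1) scale, was above the 95% critical value of Dixon's test, which chance passes in about 1 of 20 groups. Of these, 4 were HS replicate 5. Acly was at 94.8 CPM there against 181 to 190.4 CPM in the other HS libraries, Cck at 3.27 CPM against 17.1 to 20.3, Retnlb at 19.6 CPM against 376 to 637 and Cldn23 at 183 CPM against 117 to 124. NC replicate 4 was high in Jun (388 CPM, others 177 to 208) and Vdr (631 CPM, others 271 to 305), and low in Il1b (11.8 CPM, others 24.5 to 32.6). NC replicate 1 was high in Cd74 (4296 CPM, others 1055 to 1360) and low in Slc9a2 (215 CPM, others 291 to 314). NC replicate 5 was high in Dbp (104 CPM, others 20.2 to 30.1), and HS replicate 2 low in Il1b (2.21 CPM, others 13.1 to 17.1). The low values of Cck in HS replicate 5 and Il1b in HS replicate 2 lay under what a count of 0 allows there (9.81 and 6.31 CPM).

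Flot2 differed between tissues by the interaction test, with a log2 fold change 1.603 higher in colon (1.10) than in cortex (-0.52). The colon library outside the comparison, HS replicate 3, held 13820 CPM of Fabp6, against 0 to 13.7 CPM in NC, and 40121 CPM of Reg3g, against 0 to 6.90 CPM in NC.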

How the results depend on the processing

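The count of colon genes past the threshold (1, with 0 higher and 1 lower) was 16 with DESeq2 (3 higher, 13 lower), 82 with no filter on low counts (40 higher, 42 lower), and 4, all lower, with 1 CPM in at least 4 libraries. It was 2, both lower, with the NC and HS libraries alone, 3, all lower, with robust empirical Bayes, 3, all lower, after thinning, and 0 with HS replicate 3 put back. DESeq2 size factors, upper-quartile scaling and voom each gave 1. Of the settings chosen after seeing the data, the marker covariates gave 4 lower, leaving out NC replicates 1 and 3 gave 1 lower, leaving out the segment genes gave 0, and leaving out HS replicates 4 and 5 as well gave 1 higher (Akr1c14, named after its value was seen) and 0 lower. Leaving out 1 library at a time gave 1 to 3 genes, 0 to 1 higher and 1 to 2 lower: without NC replicate 5 the genes were Aqp8, Apoa1 and Dbp, and without HS replicate 1 Aqp8 and Cdkn1a. Of 153 named genes, 33 had a call in some setting and 38 a change of sign.

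With the replicate number as a replicate block, 2 genes passed, both lower (Aqp8 and LOC689065). The numbers only name the libraries: deviations of the 4 same-numbered pairs had correlations of -0.16 to 0.16, and 0 HS libraries correlated best with their own number.

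The count for colon against cortex (3, with 2 higher and 1 lower) was 0 with no filter (0 higher, 0 lower), 2 with 1 CPM in at least 4 libraries (2 higher, 0 lower), 15 with HS replicate 3 put back (9 higher, 6 lower) and 7 with voom (3 higher, 4 lower). Leaving out 1 library gave 0 to 110 genes, 0 to 48 higher and 0 to 62 lower: removing NC replicate 4 or HS replicate 4 gave 0, removing NC replicate 1 gave 12, and removing HS replicate 2, 5 or 1 gave 16, 49 and 110. The cause was not tested in any of these settings. Depth limits genes under about 3.27 to 9.81 CPM.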
